A study of Mus musculus with 3 samples.

Results

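Narrow regions of histone H3 trimethylated at lysine 4 (H3K4me3), those under 1000 bp wide, were 3005 of the 10660 marked regions found on chromosomes 1 to 19 of mouse Th17 cells (28.2%). They were chosen on the reads of both H3K4me3 libraries together. Windows of 200 bp with at least 12 reads were joined across gaps of up to 600 bp, at least 2 windows were required, and a region with at least 50 reads was called marked. The other 7655 marked regions were 1000 bp or wider and are called wider regions here. Because the width and the pooled reads chose the narrow regions, both are described and not tested. The phospho-STAT3 library was not used to choose them.

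Nucleosomes at the start sites of active genes carry H3K4me3, written by SET1 and MLL methyltransferase complexes and read by factors that recruit the transcription machinery. Wide stretches of the mark are known at highly expressed genes and at genes that define a cell type. Short stretches are known at weakly used or poised promoters, at alternative start sites and at some active enhancers. STAT3 is a transcription factor activated downstream of IL-6, and the Th17 fate depends on it. The question of the study design was how H3K4me3 differs without STAT3 and where STAT3 is bound.

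Chromatin immunoprecipitation with sequencing was performed on naive CD4 T cells sorted from Stat3fl/fl FoxP3-GFP mice, called wild-type by the submitters, and from Stat3fl/fl FoxP3-GFP, CD4-Cre mice, called STAT3-deficient. All cells therefore carried the floxed Stat3 allele and FoxP3-GFP, and the groups differed by CD4-Cre, which is active in T cells. Both groups were activated with anti-CD3 and anti-CD28 for 72 h in TGF-b (2.5 ng/ml) and IL-6 (10 ng/ml), with IL-2, IL-4 and IFN-g blocked, and were given IL-6 (10 ng/ml) again for 1 h. Each genotype gave 1 H3K4me3 library, and wild-type cells also gave 1 phospho-STAT3 library, made with an antibody labelled as directed to the serine-phosphorylated protein. The title of that library names STAT3 only, so what is called phospho-STAT3 here follows the antibody label. With 1 library per group no genotype difference has a replicate check, and no p-value is given. The number of mice behind each library is not stated in the labels. Intervals are 95% intervals (Wilson for shares, exact Clopper-Pearson for ratios). They cover counting error only, since 1 library per group shows no spread between animals or preparations. PCR reads without molecular identifiers are not independent molecules, so even the counting error may be larger than shown. Neither an input library nor phospho-STAT3 chromatin of the STAT3-deficient cells was analysed here.

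The wild-type and STAT3-deficient H3K4me3 libraries and the phospho-STAT3 library held 12281399, 12075963 and 10127075 reads. Marked regions took 6.21%, 7.85% and 5.71% of these. Genes were not placed on the regions, because the reads are on mm9 and the gene table at hand is of another build. For the same reason the deletion of Stat3 and the T cell markers were not checked on these libraries, and no sequence is printed.

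Narrow regions contributed few reads for their number. They held 115885 wild-type reads, 138108 STAT3-deficient reads and 71553 phospho-STAT3 reads, which is 15.2%, 14.6% and 12.4% of the reads in all marked regions. Reads per narrow region ranged from 3 to 197 in the wild-type library, from 6 to 199 in the STAT3-deficient library and from 0 to 303 in the phospho-STAT3 library. The medians were 35, 41 and 21 reads, against 74, 92 and 54 in wider regions. Per 100 bp the pooled H3K4me3 reads had a median of 12.5 in narrow and 10.6 in wider regions, a measure that the read minimum and the width limit together hold up in narrow regions.

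By width, 470 narrow regions spanned 400 bp, 1171 spanned 600 bp and 1364 spanned 800 bp, the widths that windows of 200 bp allow. The next class, of 1000 bp, held 1397 regions and was the first left out. Median reads rose with width and without a step at the limit. In the wild-type library the medians were 28, 33, 40 and 47 reads from the 400 bp to the 1000 bp class. In the STAT3-deficient library they were 33, 39, 49 and 58 reads, and in the phospho-STAT3 library 13, 18, 26 and 34 reads. Just inside and just outside the read limit the values were also close. The 402 narrow regions with 50 to 54 reads had medians of 25 wild-type, 27 STAT3-deficient and 14 phospho-STAT3 reads. The 499 regions of the same widths with 45 to 49 reads, which were left out, had medians of 22, 24 and 12 reads.

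Examples on the 2 sides of the width limit had similar reads. Of the regions 800 bp wide, chr5:33015600-33016399 held the most, with 140 wild-type, 160 STAT3-deficient and 42 phospho-STAT3 reads. Next among them was chr11:76220400-76221199, with 92, 138 and 47 reads. Of the regions 1000 bp wide, chr11:93828600-93829599 held 127, 152 and 42 reads. The next, chr13:64252800-64253799, held 106, 146 and 36 reads. In each of these 4 the STAT3-deficient library held more reads than the wild-type one before scaling, and none passed the size rule given further on.

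How often a region counted as narrow depended on the level at which reads were joined. With 15 reads per window in place of 12, 2553 of the 3005 (85.0%) were still found, and all of those were under 1000 bp. With 10 reads per window 2099 (69.9%) stayed narrow, and with 8 reads per window 1285 (42.8%) did. When regions were called on the wild-type library alone, 85.9% were found and 68.2% were found and narrow. On the STAT3-deficient library alone, 94.5% were found and 66.1% were found and narrow. A narrow region is therefore a stretch that is short at a stated read level, and fewer than 50% of them stayed under 1000 bp at the lowest level tried.

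The narrow regions were spread over all 19 autosomes. Chromosomes 2 and 11 held the most, with 239 each. As a share of marked regions the narrow ones made up between 25% on chromosome 7 and 32.4% on chromosome 5.

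Around the centres of narrow regions the phospho-STAT3 profile was lower and wider than the H3K4me3 profiles. The regions were bounded and centred on H3K4me3 reads, so this order is partly set by the choice. Mean profiles were taken around region centres, and the width was read at 50% of the peak's height above the level 1500 to 2000 bp away. In the 400 bp class this width was 348 bp in the wild-type and 355 bp in the STAT3-deficient H3K4me3 library, and 589 bp in the phospho-STAT3 library. The 600 bp class gave 554, 556 and 907 bp, and the 800 bp class gave 758, 765 and 1016 bp. In the 1000 bp class the values came closer, at 969, 974 and 1055 bp. Among regions 1600 bp wide the order was lost, with 1554, 1563 and 1535 bp. The H3K4me3 widths follow from the rule and are a description only.

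**Figure D1:**
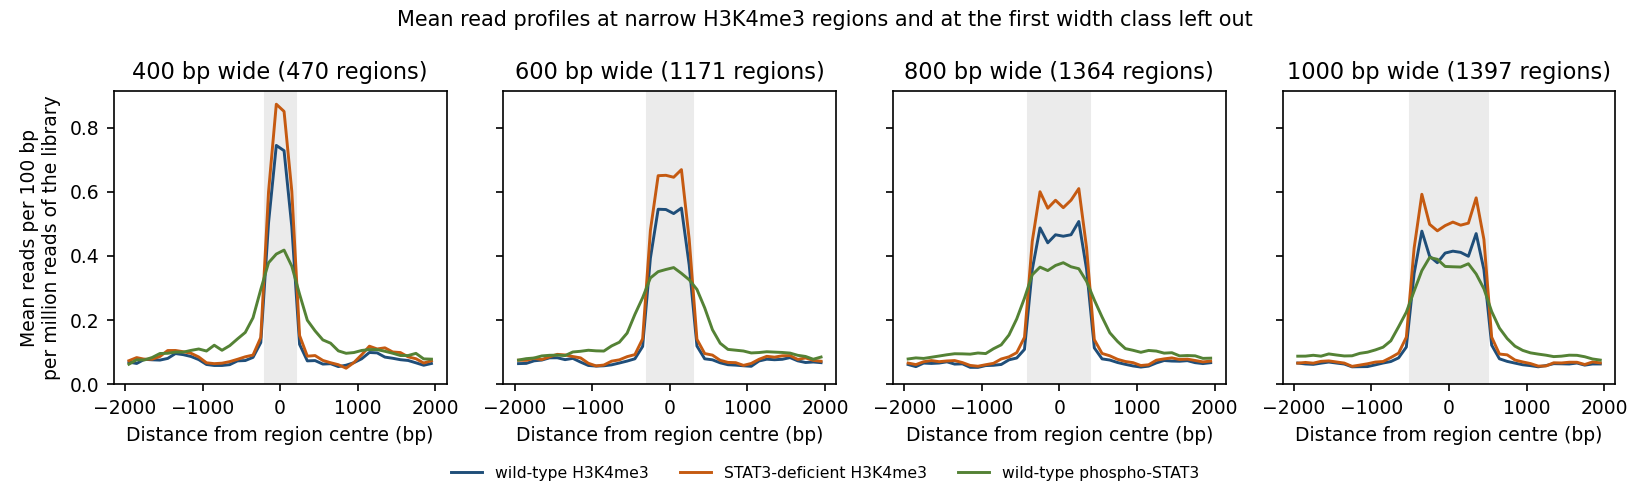
Mean reads per 100 bp scaled to the size of each library (y axis) against distance from the region centre in bp (x axis), for narrow regions of 400, 600 and 800 bp and for the first width class left out, with the called width shaded and 1 line per library. In the 400 bp class the phospho-STAT3 line is lower at the centre than both H3K4me3 lines and wider, at 589 bp against 348 and 355 bp.

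At the centre of the 400 bp class the mean was 9.05 wild-type, 10.4 STAT3-deficient and 4.17 phospho-STAT3 reads per 100 bp. The highest point of the profile stood 10.6, 10.9 and 5.08 times above the flank in these libraries. These heights too were read at centres placed on the H3K4me3 reads.

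Around the 168 strong phospho-STAT3 sites inside narrow regions, which were chosen for their phospho-STAT3 reads, the order of the widths was the opposite. The phospho-STAT3 profile centred on these sites was 241 bp wide and reached 21.9 reads per 100 bp, 23.6 times its flank. At the 706 weaker sites it was 247 bp wide and reached 9.70 reads per 100 bp, 13.5 times its flank. H3K4me3 at the strong sites was 590 bp wide in wild-type and 578 bp wide in STAT3-deficient cells. It was 686 and 720 bp wide at the weaker sites.

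The distance between reads on opposite strands, a measure of the length of the DNA fragments, differed between the H3K4me3 libraries and the phospho-STAT3 library. With 1 phospho-STAT3 library, its preparation and the protein it targets cannot be told apart in this measure. In narrow regions, pairs of a plus-strand and a minus-strand read were most frequent at 137 bp in the wild-type and at 139 bp in the STAT3-deficient H3K4me3 library. The frequency fell to a low at 247 and 250 bp and rose again to a second peak at 314 and 318 bp, 177 and 179 bp after the first. At the second peak it stood 1.12 times above the low in both libraries. Nucleosomes in a row lie at a regular spacing, which is background and was not tested here. The phospho-STAT3 library had its peak at 91 bp and no second peak. Wider regions gave the same picture, with first peaks at 138, 140 and 100 bp and second peaks at 319 and 318 bp in the H3K4me3 libraries. In narrow regions the phospho-STAT3 peak was shallow. At 20 bp its pairs already stood at 0.89 of the highest value, against 0.50 and 0.51 in the H3K4me3 libraries. The labels give a fragment size of 250 bp for each library. All reads were moved by 75 bp, which is more than a distance of 91 bp would call for. The part of this shift in the wider phospho-STAT3 profile was not tested.

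**Figure D2:**
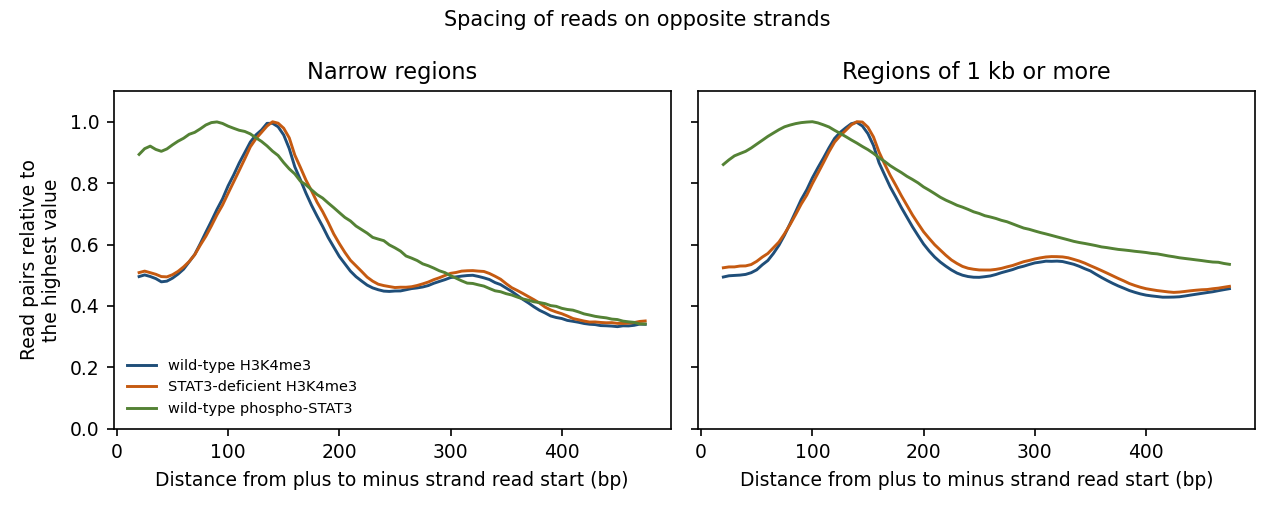
Number of read pairs on opposite strands, relative to the highest value of the same library (y axis), against the distance from the plus-strand to the minus-strand read start in bp (x axis), for narrow regions on the left and wider regions on the right. In narrow regions both H3K4me3 lines peak at 137 and 139 bp and again at 314 and 318 bp. The phospho-STAT3 line has a shallow peak at 91 bp and then falls.

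Narrow regions lay near other marked regions more often than wider ones did at the joining distance used. Another marked region was within 5 kb of 540 narrow regions (18.0%, 16.6% to 19.4%) and of 12.9% of wider regions (12.2% to 13.7%), so the intervals did not overlap. The share was 23.2% in the 400 bp class, 18.2% in the 600 bp class and 16.0% in the 800 bp class. The nearest neighbour was itself narrow in 275 of the 540 and wider in 265. Joining windows over gaps of at most 600 bp fixes the smallest distance. Over 1000 bp the shares were 11.8% (10.6% to 13.1%) and 10.7% (10.1% to 11.4%), and the intervals overlapped.

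Some narrow regions came in short runs. There were 137 pairs and 2 groups of 3 whose members lay within 5 kb of each other. The group at chr5:21236200-21243999 held 123 wild-type, 116 STAT3-deficient and 41 phospho-STAT3 reads. The group at chr6:86314600-86322199 held 119, 156 and 47 reads. At the other extreme, 2186 narrow regions had no marked region within 10 kb.

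The 4 most isolated narrow regions lay megabases from any other. Around chr1:113760800-113761399, with 30 wild-type, 31 STAT3-deficient and 18 phospho-STAT3 reads, the nearest marked region was 5066800 bp away. It overlapped a strong phospho-STAT3 site of 59 reads whose centre was outside it. In contrast chr4:78444000-78444799, with 30, 34 and 11 reads and a neighbour at 3519800 bp, had its nearest phospho-STAT3 site 3346050 bp away. The region chr14:115441600-115442199 held 32, 41 and 28 reads, with a neighbour at 3045800 bp and a phospho-STAT3 site of 19 reads centred inside. The fourth, chr6:103599000-103599399, held 33, 39 and 42 reads, had a neighbour at 2814000 bp, and had mismatched bases in 56.9% of its H3K4me3 reads. A strong site of 33 reads was centred inside it. Called by the same rule, the sites inside these last 2 regions were also sites in a H3K4me3 library. At none of these 4 did the genotypes differ beyond counting error.

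H3K4me3 of most narrow regions differed little between the genotypes. Ratios were scaled so that the median log2 ratio of all marked regions, STAT3-deficient over wild-type, was 0. Any change common to all marked regions is taken out by this. In a bulk library a lower value from fewer cells with the mark and from less mark per cell cannot be told apart. The median log2 ratio was -0.05 in narrow regions (quartiles -0.30 and 0.19) and 0.02 in wider ones. The ratio lay within 0.5 of 0 in 81.6% of narrow and in 85.9% of all marked regions. In 92.3% of narrow regions its counting interval included 0, against 88.5% of all marked regions. Narrow regions held fewer reads than wider ones, which widens their intervals, so this share does not show that their differences were smaller.

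A region passed the size rule where the genotypes differed by at least 2-fold and the exact interval of the ratio left out no difference. By this rule 29 narrow regions (0.965%, 0.673% to 1.38%) were higher in STAT3-deficient cells, while 1.02% of all marked regions were. Lower were 48 (1.60%, 1.21% to 2.11%), while 1.15% of all marked regions were. The higher share was near the background. The interval of the lower share had its lower end just above the background. In wider regions 80 (1.05%) were higher and 75 (0.980%) were lower.

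Which direction had more regions depended on the processing. With library totals in place of the median of marked regions, 100 narrow regions were higher and 14 were lower, against a background of 2.9% and 0.478% of all marked regions. The median log2 ratio of narrow regions was then 0.27. This scaling moved every ratio by 0.32 on the log2 scale. Without the read shift, and with the median scaling, 43 were higher and 41 lower. Called on the wild-type library alone, 4 narrow regions were higher and 153 lower, and called on the STAT3-deficient library alone, 55 were higher and 19 lower.

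**Figure D3:**
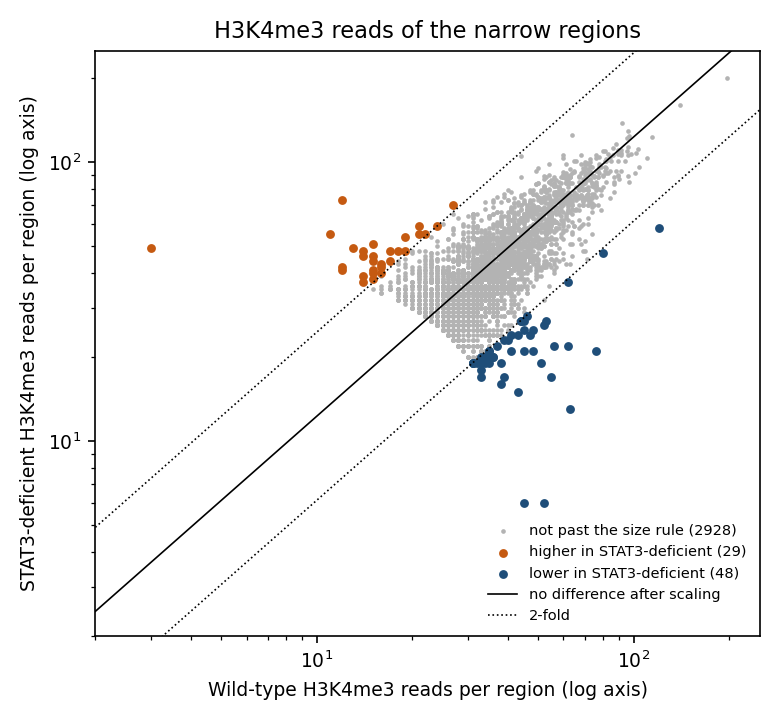
Reads per narrow region in the STAT3-deficient H3K4me3 library (y axis, log scale) against the wild-type H3K4me3 library (x axis, log scale), with the line of no difference after scaling and the 2-fold lines dotted. The 29 regions past the size rule on the higher side and the 48 on the lower side lie at low read numbers, and no higher one is found among regions with 100 or more pooled reads.

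The regions past the size rule were nearly all small. Of the 738 narrow regions with 100 or more pooled reads, 0 were higher, which allows a share of up to 0.407% (3 counts of the total), and 2 were lower. Together that is 0.271% (0.0744% to 0.983%), against 93 of 6387 wider regions with as many reads (1.46%, 1.19% to 1.78%). Under 100 reads the shares were 3.31% of 2267 narrow (2.65% to 4.13%) and 4.89% of 1268 wider regions (3.83% to 6.22%). The intervals overlapped under 100 reads and did not overlap from 100 reads on, where the wider regions reach more reads. At 100 to 149 reads 0 of 591 narrow regions were higher and 0.169% were lower, against 1.59% and 0.973% of 1952 wider ones.

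Background around the regions moved with this. The reads expected from the flanks 2 to 5 kb away were a median of 10.0% of the reads of a narrow region and 11.9% of those of a wider one. At 50 to 74 pooled reads the medians were 12.7% and 25.4%. In that band 1.56% of 1472 narrow regions were higher and 2.65% were lower, and of 525 wider regions 2.86% and 4.38%. Median log2 ratios in the band were -0.11 and -0.20. At 100 to 149 reads they were 0.00 and 0.01, with flank shares of 7.07% and 12.8%. The part of the background in the difference was not tested beyond subtracting it, which gave 51 higher and 90 lower narrow regions. Subtracted reads were rounded, kept positive and treated as counts, so their intervals leave out the error of the background. The share over all marked regions was not computed after subtraction, so these numbers cannot be set against one.

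The 48 lower narrow regions had 31 to 120 wild-type reads (median 42), 6 to 58 STAT3-deficient reads (median 21) and 2 to 303 phospho-STAT3 reads (median 18.5). Their median log2 ratio was -1.14, and in 38 of them the size of the log2 ratio was under 1.5. They lay on 16 chromosomes. Chromosome 2 held 10 of the 48 lower regions, beside 239 of all 3005 narrow regions. The 29 higher ones had 3 to 27 wild-type reads (median 15), 37 to 73 STAT3-deficient reads (median 48) and 2 to 182 phospho-STAT3 reads (median 14), on 15 chromosomes. In 24 of the 29 the log2 ratio was under 1.5.

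The 8 lower regions whose interval bound lay farthest from 0 were regions with a clear peak in wild-type cells and few reads in STAT3-deficient cells. On chromosome 1, chr1:178765000-178765799 held 52 wild-type, 6 STAT3-deficient and 36 phospho-STAT3 reads, with a log2 ratio of -3.41 (-4.92 to -2.19). Its STAT3-deficient reads were close to the 3.20 expected from its flanks. The nearest marked region, 3200 bp wide and 19400 bp away, had a log2 ratio of -0.14, so the difference did not extend to it. A strong phospho-STAT3 site of 77 reads lay 1750 bp away.

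On chromosome 2, chr2:144994000-144994599 held 45 wild-type, 6 STAT3-deficient and 28 phospho-STAT3 reads, with a log2 ratio of -3.20 (-4.72 to -1.97). It was isolated: its nearest marked region, 506200 bp away at chr2:145500800-145501599, was another narrow region on the lower side, with 39 and 23 reads and a log2 ratio of -1.06 (-1.87 to -0.28). On chromosome 14, chr14:56384800-56385399 held 63, 13 and 14 reads, with a log2 ratio of -2.57 (-3.56 to -1.70). Its 14 phospho-STAT3 reads were no more than its flanks gave. Those flanks, 2 to 5 kb away, held a strong site of 57 reads at 2050 bp, which raised the number they gave.

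On chromosome 16, chr16:58718200-58718999 held 76 wild-type, 21 STAT3-deficient and 82 phospho-STAT3 reads, with a log2 ratio of -2.15 (-2.92 to -1.44). It was the only region of these 8 with a phospho-STAT3 site centred inside, of 32 reads and 4.68 times the local expectation. Its flanks differed in the same direction, with 9.20 wild-type and 2.27 STAT3-deficient reads expected over its width. On chromosome 13, chr13:41016400-41016999 held 55, 17 and 18 reads, with a log2 ratio of -1.99 (-2.87 to -1.18). Here the neighbour was lower as well: the region 2200 bp away, 1800 bp wide, held 94 and 44 reads and had a log2 ratio of -1.39 (-1.94 to -0.86). A strong phospho-STAT3 site of 36 reads lay 800 bp from the narrow region.

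The remaining 3 lower regions had log2 ratios of -1.79, -1.82 and -1.72. The region chr2:25094600-25095399 held 62 wild-type, 22 STAT3-deficient and 28 phospho-STAT3 reads (interval -2.56 to -1.07). A neighbour 1000 bp away held 37 and 33 reads, with a log2 ratio of -0.46. The region chr4:48598800-48599199 held 43, 15 and 8 reads (interval -2.77 to -0.94), and its nearest phospho-STAT3 site was 8250 bp away. Last, chr1:94023800-94024199 held 51, 19 and 12 reads (interval -2.56 to -0.94), with a strong site of 34 reads at 2350 bp. A strong phospho-STAT3 site lay within 10 kb of 5 of these 8 lower regions, and in each of those cases its centre was outside the region. Such a site lay within 10 kb of 20.8% of all narrow and 24.9% of all marked regions. These 8 were picked as extremes, so their count is a description only.

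**Figure D4:**
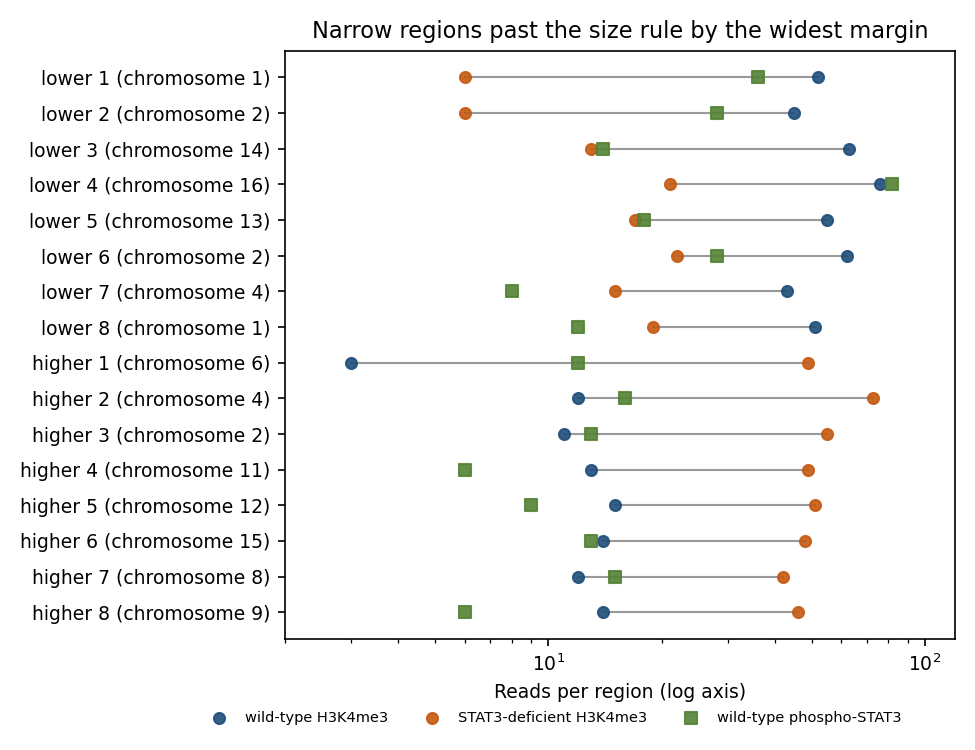
Reads per region on a log axis (x axis) for the 8 lower and 8 higher narrow regions past the size rule by the widest margin (y axis, with their chromosome), with 1 point per library and a line joining the H3K4me3 libraries. The lower regions span 43 to 76 wild-type and 6 to 22 STAT3-deficient reads, and the higher ones 3 to 15 and 42 to 73 reads.

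The 8 higher regions had few wild-type reads to compare with. On chromosome 6, chr6:124850400-124850799 held 3 wild-type, 49 STAT3-deficient and 12 phospho-STAT3 reads, with a log2 ratio of 3.73 (2.10 to 6.06). Its 3 wild-type reads equalled the number its flanks gave, so in wild-type cells no signal above the surroundings was detectable at this depth. A strong phospho-STAT3 site of 31 reads lay 2750 bp away.

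On chromosome 4, chr4:46613400-46614199 held 12, 73 and 16 reads, with a log2 ratio of 2.31 (1.42 to 3.32). Flanks gave 10.1 of its 12 wild-type reads. On chromosome 2, chr2:153352800-153353599 held 11, 55 and 13 reads, with a log2 ratio of 2.02 (1.08 to 3.11). These first 3 were the only higher regions of the 8 with a lower bound above 1.

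The other 5 had log2 ratios between 1.42 and 1.62. The region chr11:3104200-3104999 held 13, 49 and 6 reads, with a log2 ratio of 1.62 (0.71 to 2.62). It lay beside the satellite-like stretch left out below 3100000, its flanks gave 21.3 wild-type reads, more than its own 13, and its log2 ratio was 0.45 when joined over 1000 bp. The region chr12:16902400-16902999 held 15, 51 and 9 reads, and chr15:98607000-98607799 held 14, 48 and 13. The region chr8:35861000-35861599 held 12, 42 and 15 reads, and chr9:40890600-40891199 held 14, 46 and 6, with a strong site of 41 reads at 3850 bp. With 10 reads per window the regions on chromosomes 12 and 8 no longer passed the rule (0.59 and 0.80). None of these 8 higher regions had a phospho-STAT3 site inside, while 47.6% of all marked regions had one. A strong site lay within 10 kb of 2 of them, beside 24.9% of all marked regions.

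The narrow regions with the most H3K4me3 reads did not pass the rule in either direction. The highest, chr9:35112600-35113199, held 197 wild-type, 199 STAT3-deficient and 265 phospho-STAT3 reads. The third, chr1:197067600-197068199, held 114, 123 and 141 reads. Both had many reads with mismatched bases, 30.8% and 25.7% of their H3K4me3 reads against a median of 4.42% over narrow regions. After chr5:33015600-33016399 and chr11:76220400-76221199, given above, came chr11:115425800-115426599 with 96, 129 and 20 reads, and chr2:37286000-37286799 with 97, 124 and 33. The log2 ratios of these 6 ranged from -0.28 to 0.29, and each interval included 0.

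Phospho-STAT3 was above its surroundings over most narrow and most wider regions, but called sites were centred in a minority of the narrow ones. A site was a window of 200 bp with at least 10 phospho-STAT3 reads, both strands among them. Its Poisson p had to be under 1e-08 over whichever density was larger, that of the surrounding 10 kb or that of the genome. A site was strong if it was among the top 25% by reads over expectation, at least 26.1 reads. The median narrow region had 5.07 times the phospho-STAT3 reads of its flanks, against 4.96 times in wider regions, and in 2634 of 3005 (87.7%) the reads were at least 2-fold above the flanks. At 50 to 74 pooled H3K4me3 reads this held for 82.1% of narrow and 65.7% of wider regions. The shares were 93.8% and 94.1% at 150 to 199 reads, so being above the flanks was not particular to narrow regions. A site was centred inside 874 narrow regions (29.1%, 27.5% to 30.7%), while 47.6% of all marked regions had one. A strong site was centred inside 168 (5.59%, 4.82% to 6.47%), while 11.4% of all marked regions had one.

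The shares were closer in a window of fixed length. In such a window, the central 1 kb of each region, a site was centred in 40.5% of narrow regions (38.7% to 42.2%), while 41.2% of all marked regions had one there. Narrow regions had a site inside more often the wider they were, with 18.7% in the 400 bp class, 24.9% in the 600 bp class and 36.3% in the 800 bp class. In the central 1 kb the shares were 34.7%, 40.1% and 42.7%, and 44.2% in the 1000 bp class. The interval of the 400 bp class did not overlap those of the 800 and 1000 bp classes. At 50 to 74 H3K4me3 reads in the central 1 kb, 28.7% of narrow regions and 27.4% of regions of 1 to 2 kb had a site there, and at 100 to 149 reads 49.7% and 51.4%. At 150 to 199 such reads the share was 68.1% in narrow regions (61.0% to 74.5%) and 60.7% in regions of 1 to 2 kb (57.6% to 63.7%). Over all wider regions in that band it was 54.7% (51.9% to 57.4%), an interval that did not overlap that of the narrow ones. At 200 or more reads the shares were 73.1% of 26 narrow regions, 67.5% of regions of 1 to 2 kb and 55.4% of all wider ones. Median phospho-STAT3 reads in this window went the other way, with 40 in narrow and 44 in wider regions at 150 to 199 reads. At 200 or more reads they were 41 and 49. The local expectation of a site includes the reads of the region itself, and its part in these shares was not tested.

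**Figure D5:**
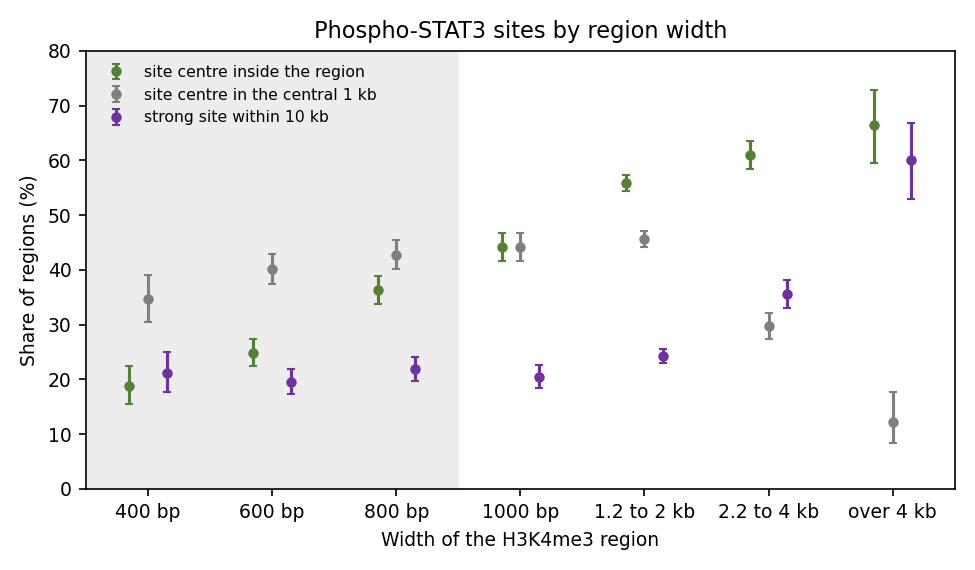
Share of regions in % (y axis) with a phospho-STAT3 site centre inside the region, with a site centre in the central 1 kb, and with a strong site within 10 kb, by width of the H3K4me3 region (x axis), with Wilson intervals as bars and the narrow classes shaded. The share inside climbs from 18.7% at 400 bp to 36.3% at 800 bp, and the share in the central 1 kb changes less, from 34.7% to 42.7%.

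The sites inside narrow regions had a median of 20 reads and 10.3 times the local expectation. In 19.2% of these regions the strongest site inside was strong, against 25% of wider regions with a site. The site centre lay a median of 150 bp from the region centre, and 34 narrow regions held 2 or more sites.

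Many of the same places also stood out in the H3K4me3 libraries, on whose reads the regions were chosen. Called by the identical rule there, the strongest site inside was also a site in a H3K4me3 library in 739 of the 874 narrow regions (84.6%). Of all narrow regions, with or without a phospho-STAT3 site, 72.6% held such a site of the wild-type and 81.4% one of the STAT3-deficient H3K4me3 library. Without such sites the share of narrow regions with a site inside was 4.69%. Binding of the factor and a general gain of reads over marked chromatin cannot be told apart there, since an input library was not analysed. In 442 narrow regions (14.7%, 13.5% to 16.0%) the phospho-STAT3 reads, as a share of their library, exceeded those of both H3K4me3 libraries, and this held for 18.2% of wider regions (17.4% to 19.1%).

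The 6 strongest sites inside narrow regions had 117 to 190 reads. All but the first given below were also sites in a H3K4me3 library. On chromosome 2, chr2:163029000-163029599 held 32 wild-type H3K4me3, 19 STAT3-deficient H3K4me3 and 197 phospho-STAT3 reads. Its site had 131 reads, 22.1 times the local expectation, and was no site in either H3K4me3 library. The region was lower in STAT3-deficient cells, with a log2 ratio of -1.05 (-1.95 to -0.19). By library totals it was -0.73 (-1.63 to 0.14), which does not pass the size rule. On chromosome 6, chr6:28371400-28372199 held 64, 70 and 221 reads, with a site of 128 reads at 17.7 times expectation. Its H3K4me3 did not differ beyond counting error (log2 ratio -0.17, -0.68 to 0.34).

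On chromosome 3, chr3:65462800-65463399 held 14, 39 and 182 reads, with a site of 120 reads at 10.4 times expectation. This region was on the higher side, with a log2 ratio of 1.18 (0.27 to 2.18). The other 3 of the 6 strongest had many mismatched reads. The region chr11:108873000-108873399 held 45, 25 and 303 reads and a site of 190 reads, and 47.1% of its H3K4me3 reads were mismatched. Its log2 ratio was -1.14 (-1.91 to -0.41), and -0.82 by library totals, under 2-fold. The region chr4:70039000-70039399 held 103, 111 and 143 reads and a site of 117 reads, with 48.6% mismatched. The third, chr9:35112600-35113199, is described above and had a site of 170 reads. The regions of 2 of the 6 strongest sites were thus lower and 1 was higher, beside 1.60% and 0.965% of all narrow regions, and by library totals only the higher one passed the rule.

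The median H3K4me3 ratio differed little between narrow regions with and without a site inside. The median log2 ratio was -0.07 in the 2131 narrow regions with no site inside, -0.04 in the 706 with a weaker site and -0.03 in the 168 with a strong one. Past the size rule were 25 higher and 37 lower regions without a site, 3 and 7 with a weaker site, and 1 and 4 with a strong one. Over all marked regions the shares were 1.02% and 1.15%. The sets differ in size and in reads, so these counts cannot be set against each other. From 50 to 74 up to 150 to 199 pooled reads, the share with a site inside rose from 22.1% to 50.8%. The lower share fell from 2.65% to 0.769%. Of the 48 lower narrow regions, 11 had a site inside (22.9%, 13.3% to 36.5%), and of the 29 higher ones 4 did (13.8%, 5.50% to 30.6%).

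Within 10 kb, strong sites lay near a larger share of lower narrow regions than of narrow regions not past the rule. The share was smaller than among lower wider regions. A site of any strength lay within 10 kb of 2052 narrow regions (68.3%, 66.6% to 69.9%), while 75.3% of all marked regions had one. A strong site did so for 626 (20.8%, 19.4% to 22.3%), while 24.9% of all marked regions had one. Of the 48 lower narrow regions, 17 had a strong site within 10 kb (35.4%, 23.4% to 49.6%), against 20.6% of narrow regions not past the rule (19.1% to 22.1%). These intervals did not overlap, but by library totals only 14 narrow regions were lower, and the share was not given for them. Of the 29 higher ones, 7 had one (24.1%, 12.2% to 42.1%). Among wider regions on the lower side it was 52 of 75 (69.3%, 58.2% to 78.6%), an interval that did not overlap that of the lower narrow regions. Distances ran from the region edges, so a wider region takes in more sequence. Wider regions not past the rule are not set beside these here.

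The surroundings of narrow regions differed in the same measure. A strong site lay within 10 kb of 36.1% of the 471 narrow regions whose nearest marked region within 10 kb was wider, of 25.3% of the 348 whose nearest was narrow, and of 16.8% of the 2186 with none. The median log2 ratios of these sets were -0.03, 0.02 and -0.07. Neighbourhood therefore went with the presence of strong sites and with only a small difference in H3K4me3.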

How the data were processed

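The authors deposited aligned reads, 1 line per read, with a position, a strand and a code of matching and mismatched bases, and no count or other value per region. Build mm9 and SICER are named per the submitters' processing notes, while the aligner is not given in the sources used here. Each read spans 25 bp. No position and strand was repeated within a library, so repeats of a position had been removed before deposit. A read was called mismatched if its code held a mismatched base.

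Reads were moved 75 bp towards the fragment centre, and positions below 3100000 were left out. Read counts per region, the median scaling, exact Clopper-Pearson and Wilson intervals, phospho-STAT3 sites and flanks were computed with Python 3.11.15, numpy 2.4.6, scipy 1.17.1 and pandas 2.3.3, and figures with matplotlib 3.10.9. The counting and site steps were tested on simulated data. Strand distances were smoothed over 21 bp.

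Named regions, leaving out those with over 90% of reads on 1 strand, were in each direction the 8 past the size rule by the widest margin of the interval, the 6 with most reads, the 6 with the strongest site inside, the 4 most isolated, and the 2 with most reads on each side of the width limit. The members and lists were chosen with earlier results of these data known. Gene lists and a motif search that had been laid out were not run, since no annotation or genome of mm9 was used here. Alternatives tried were other scalings, read levels, gaps, shifts, minimums, single libraries and site rules.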

Additional observations from a re-analysis of the deposited data

Results flagged for a closer look

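Reads with mismatched bases, which were counted with the others in the comparisons above, were concentrated in a few narrow regions. In 9 narrow regions at least 50% of the H3K4me3 reads were mismatched, against 3.90% and 3.97% of all reads in these libraries and a median of 4.42% over narrow regions. All marked regions together held 12 such regions, so 9 of the 12 were narrow. In these 9 the share was 51.0% to 75.8% in H3K4me3 and 48.4% to 84.0% in phospho-STAT3 reads. None of the 9 passed the size rule.

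A wider set, with at least 25% mismatched reads, held 34 narrow regions of 67 among all marked ones. A phospho-STAT3 site was centred inside 26 of the 34 (76.5%, 60.0% to 87.6%), against 28.5% of the other 2971 (27.0% to 30.2%). A strong site was inside 15 of them (44.1%), against 5.15% of the others. The 3 libraries gave them 1840 wild-type H3K4me3, 1954 STAT3-deficient H3K4me3 and 2110 phospho-STAT3 reads. Their summed log2 ratio was -0.21 (-0.30 to -0.12) with the scaling used above and 0.11 (0.02 to 0.20) by library totals. The cause of the mismatches was not tested. Without the 34 regions 27 narrow regions were higher and 46 lower.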

How the results depend on the processing

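No paired analysis was possible because each group had 1 library. Of the 16 named differing regions, those that could be matched under an alternative kept their direction, but few were matched in some: 8 lower and 0 higher ones on the wild-type library alone, 1 lower and 8 higher on the STAT3-deficient library alone, and 2 lower and 1 higher with at least 80 reads. Without the read shift 14 were matched. The 2 lower regions with the largest differences, chr1:178765000-178765799 and chr2:144994000-144994599, were then not matched. The latter was also unmatched with 15 reads per window, and chr15:98607000-98607799 when joined over 200 bp. Matched regions that fell under the rule were the higher regions on chromosomes 12 and 8 with 10 reads per window (log2 ratio 0.59 and 0.80), those on chromosomes 11 and 12 joined over 1000 bp (0.45 and 0.59) and that on chromosome 11 called on the STAT3-deficient library alone (0.36). Against 29 higher and 48 lower narrow regions, scaling by library totals gave 100 and 14 (median log2 ratio 0.27), subtracting flanks 51 and 90, calling on the wild-type library alone 4 and 153, and calling on the STAT3-deficient library alone 55 and 19 (median -0.0175). Calling on 1 library favours regions higher in it. For alternatives other than library totals the share over all marked regions was not computed, so their counts have no background beside them. With at least 80 reads there were 1335 narrow regions, 3 higher and 7 lower, with a site inside 37.2%, a site within 10 kb of 77.8% and a strong one of 24.5%. Joining over 200 bp gave 5023 narrow regions, 59 higher and 82 lower, a median of -0.0375, a site inside 25.2%, a site within 10 kb of 72.0%, a strong one of 22.7% and a neighbour within 5 kb of 36.2%. Joining over 1000 bp gave a site inside 31.2% and a neighbour of 11.8%. A site lay within 10 kb of 66.6% with 10 and of 71.7% with 15 reads per window (median then -0.0373), and without the read shift of 64.0%, with a strong one of 18.6% (43 regions higher, 41 lower). A site threshold of 1e-12 gave 16.5% inside, 45.6% within 10 kb and 11.4% strong within 10 kb. Leaving out sites also called in H3K4me3 gave 4.69%, 40.8% and 12.2%. Counting any overlap, an alternative chosen after seeing the data, gave 40.2% inside. A neighbour lay within 2 kb of 11.3% and within 10 kb of 27.3%. The cause of these differences was not tested. Depth limits the rest: at the median of 35 and 41 reads only large differences pass the size rule.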
